A study of Mus musculus with 6 samples.

Results

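The secretory products of goblet cells were followed in RNA from sorted small intestinal Paneth cells (PCs) of Ifnar1 knockout mice injected with tumour necrosis factor (TNF) or phosphate-buffered saline (PBS). The group holds 8 genes (Muc2, Tff3, Clca1, Fcgbp, Zg16, Spink4, Klk1 and Agr2), each found in the count table by its Ensembl identifier, out of 55414 identifiers in all. All 8 passed the filter on low counts, which left 13026 genes for testing. Each group had 3 libraries from different mice, and PCs were sorted 15 h after the injection. All 6 mice carried strain label C57BL/6J and genotype label IFNAR1 KO, so the loss of this type I interferon receptor subunit is shared by the PBS controls, and no wild-type mice were compared. The dose of TNF and the age and sex of the mice are not given in the labels.

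Goblet cells and PCs are both secretory cells of the intestinal epithelium and arise from progenitors that depend on the transcription factor Atoh1. Goblet cells pack the polymeric mucin Muc2 into granules together with smaller proteins, and after release these hydrate into the mucus that separates bacteria from the epithelium. The 8 genes cover the mucin itself, proteins that bind or process the mucus (Fcgbp, Clca1 and Zg16), small secreted peptides and enzymes (Tff3, Spink4 and Klk1), and Agr2, which works on secreted proteins inside the endoplasmic reticulum (ER).

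Library totals ran from 12747484 to 17039511 counts, at which 3 counts correspond to between 0.147 and 0.255 CPM, the count scaled to a common library total with TMM (trimmed mean of M-values) normalization. The labelled cell type was borne out by its markers, since all 11 PC markers were tested and their summed level was between 283982 and 652668 CPM in the 6 libraries. Most of this sum was Lyz1, Defa24 and Defa30, and 6 of the 11 had a log2 fold change above 0. Single markers moved within the sum in both directions. In TNF replicates 1 to 3 Nupr1 had 156, 975 and 925 CPM (188 to 289 in PBS mice). Clps had 2172, 260 and 467 CPM (1231 to 2341 in PBS mice). Ifnar1 was counted at 5.18 to 12.7 CPM in all libraries, and a count over the whole gene without wild-type mice does not check the genotype. TNF replicate 1 stood apart from its group. Its log2 CPM correlated across genes at 0.884 and 0.883 with TNF replicates 2 and 3, which correlated with each other at 0.954, and at 0.937 to 0.945 with the PBS libraries. Genes are not independent replicates, so these are descriptions. Fold changes, calls and other values that rest on this library are therefore also given without it. It was picked out from these same data, so calls and adjusted p values without it are descriptions too.

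Transcripts of all 8 genes were readily counted in the sorted PCs of PBS mice, and their levels covered a wide range. Compared per length, as CPM per kilobase (kb) of annotated exon, Spink4 was highest in PBS mice with a mean of 11408, and Tff3 and Agr2 came next with 2126 and 1309. Klk1 and Muc2 followed at 111 and 107 CPM per kb, Fcgbp and Zg16 at 43.2 and 32.9, and Clca1 was last at 11.7. In this order the ranges of the 3 PBS libraries overlapped only between the neighbours Klk1 and Muc2 and between Fcgbp and Zg16. Spink4 also led in TNF mice with 10625 CPM per kb, but there the ranges of Tff3 (1553) and Agr2 (1144) overlapped, as did those of neighbours among Klk1 (53.1), Clca1 (29.0), Fcgbp (19.5) and Zg16 (14.7). Muc2 stood between these sets at 118 CPM per kb. In TNF replicates 2 and 3 alone the means were 8268 CPM per kb for Spink4, 1064 for Agr2, 912 for Tff3, 144 for Muc2, 48.6 for Klk1, 11.3 for Fcgbp, 4.61 for Zg16 and 3.60 for Clca1, so that Clca1 was last there too.

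**Figure D1:**
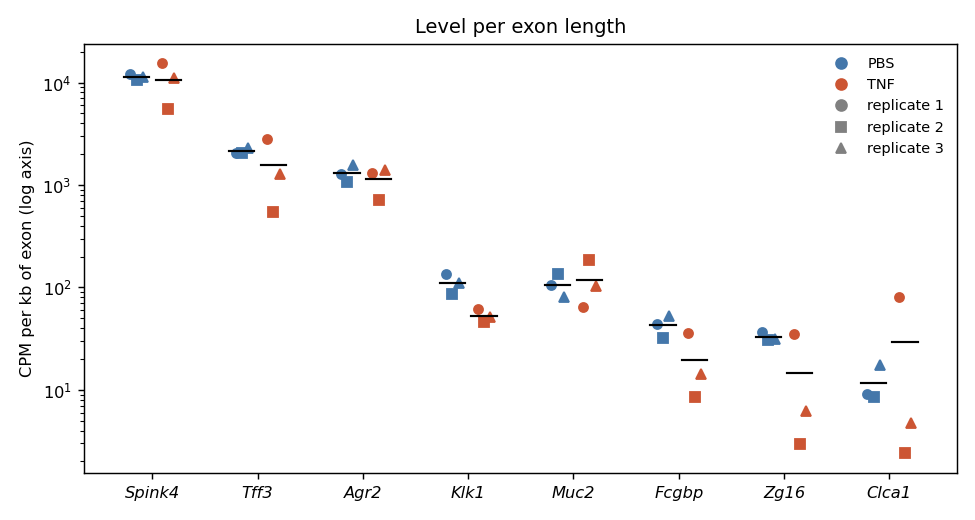
Level of each goblet cell product per length, in CPM per kb of annotated exon on a log axis, with 1 point per library, PBS and TNF in separate colours and the group mean as a bar. Spink4 lies highest in both groups (means of 11408 and 10625 CPM per kb) and Clca1 lowest in PBS mice (11.7).

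Muc2 (ENSMUSG00000025515, chromosome 7, 141276583 to 141308430, plus strand, GRCm39) encodes the gel-forming mucin of intestinal mucus. It measured 1481, 1860 and 1110 CPM in the PBS mice, given here and elsewhere in the order of their replicate numbers, and 888, 2580 and 1440 CPM in the TNF mice. The lowest and the highest of the 6 values were both from TNF mice, so the groups overlapped. The means were 1484 ± 375 and 1636 ± 863 CPM (SD, n = 3 each). The log2 fold change, TNF against PBS as in all that follow, was 0.14 (SE 0.42, adjusted p = 0.916 in edgeR's quasi-likelihood test with Benjamini-Hochberg adjustment over all 13026 genes). It became 0.46 without TNF replicate 1 (edgeR adjusted p = 0.402), -0.38 without TNF replicate 2 and -0.08 without PBS replicate 3, so its direction rested on single libraries.

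Fcgbp (ENSMUSG00000047730, chromosome 7, 27770661 to 27820287, plus strand) encodes a large protein that binds to Muc2 in mucus. Its levels were 463, 340 and 558 CPM in the PBS mice and 377, 88.4 and 149 CPM in the TNF mice. TNF replicate 1 lay among the PBS values and the other two TNF libraries below all of them. Mean levels were 454 ± 109 CPM in PBS and 205 ± 152 CPM in TNF mice, which gave -1.15 on the log2 scale (SE 0.48, edgeR unadjusted p = 0.0402, adjusted p = 0.388). Without TNF replicate 1 it was -1.92 (edgeR adjusted p = 0.00230), and the adjusted p over all alternatives tried ran from 0.00230 to 0.920.

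Clca1 (ENSMUSG00000028255, chromosome 3, 144709578 to 144738537, minus strand) encodes a secreted metalloprotease that cleaves Muc2. Here 34.4, 32.0 and 66.3 CPM were counted in PBS mice, against 302, 9.05 and 18.1 CPM in TNF mice. TNF replicate 1 was the highest of all 6 libraries and the other two TNF libraries were the lowest, so the direction of Clca1 was set by 1 mouse. The means were 44.2 ± 19.1 and 110 ± 166 CPM, which gave 1.31 on the log2 scale (SE 1.04, edgeR adjusted p = 0.641). Without TNF replicate 1 the value was -1.70 (SE 0.38, edgeR adjusted p = 0.0118), and over all alternatives the adjusted p ran from 0.00170 to 0.919. Clca1 was called in both directions, since it passed 5% as higher in TNF mice when no filter on low counts was applied. The value there was 1.28 with an SE of 0.30, near the value with the filter but with a smaller SE. TNF replicate 1 alone set its direction in both.

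Zg16 (ENSMUSG00000049350, chromosome 7, 126649302 to 126686500, minus strand) encodes a small lectin that binds the cell wall of gram-positive bacteria. It was level among the PBS mice at 51.9, 42.8 and 44.3 CPM and measured 49.1, 4.21 and 8.78 CPM in the TNF mice. TNF replicate 1 again lay within the PBS range, and TNF replicates 2 and 3 lay far below it. The means were 46.3 ± 4.84 and 20.7 ± 24.7 CPM, a difference of -1.17 on the log2 scale (SE 0.71, edgeR adjusted p = 0.530). It was -2.84 without TNF replicate 1 (SE 0.31, edgeR adjusted p = 2.08e-04), the most negative value among the 8 genes, and the adjusted p over the alternatives ran from 2.08e-04 to 0.933.

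Tff3 (ENSMUSG00000024029, chromosome 17, 31344280 to 31348620, minus strand) encodes a trefoil peptide secreted with mucus and known for its part in epithelial repair. It was counted at 1051, 1055 and 1185 CPM in PBS mice and at 1463, 283 and 659 CPM in TNF mice. The PBS libraries lay close together, with TNF replicate 1 above them and TNF replicates 2 and 3 below. The means were 1097 ± 76.0 and 802 ± 603 CPM (log2 fold change -0.45, SE 0.51, edgeR adjusted p = 0.755). Without TNF replicate 1 the log2 fold change was -1.20 with an edgeR adjusted p of 0.0395, the lowest over the alternatives, whose highest was 0.979. Without TNF replicate 2 the value was -0.08 (edgeR adjusted p = 0.970), so the size of the difference rested on single libraries.

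Spink4 (ENSMUSG00000028415, chromosome 4, 40920044 to 40931396, plus strand) encodes a small secreted peptide of the Kazal-type protease inhibitor family. Its PBS levels were 8697, 7531 and 8139 CPM and its TNF levels 10921, 3934 and 7839 CPM. TNF replicate 1 was the highest library and TNF replicate 2 the lowest, while TNF replicate 3 lay inside the PBS range. The log2 fold change from 8123 ± 583 to 7565 ± 3501 CPM came to -0.10 (SE 0.46, edgeR adjusted p = 0.943), and it was -0.45 without TNF replicate 1 and 0.18 without TNF replicate 2.

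Klk1 (ENSMUSG00000063903, chromosome 7, 43874725 to 43879048, plus strand) encodes tissue kallikrein, a secreted serine protease that releases kinins. It measured 156, 99.8 and 126 CPM in PBS mice and 71.2, 53.2 and 58.3 CPM in TNF mice. All 3 TNF libraries lay below all 3 PBS libraries, and Klk1 was the only gene of the 8 whose groups did not overlap. Across the 13026 tested genes 7.82% had TNF libraries entirely below the PBS libraries. The mean was 127 ± 28.2 CPM in PBS and 60.9 ± 9.30 CPM in TNF mice, which on the log2 scale is -1.07 (SE 0.24, edgeR unadjusted p = 0.00145, adjusted p = 0.270), which did not pass 5%. Its log2 fold change stayed between -1.22 and -0.89 with each library left out in turn. It passed 5% without TNF replicate 1 (edgeR adjusted p = 0.00744) and in DESeq2 with all 6 libraries (adjusted p = 0.00684), and the adjusted p over all alternatives ran from 0.00396 to 0.897.

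Agr2 (ENSMUSG00000020581, chromosome 12, 36042904 to 36054086, plus strand) encodes a protein disulfide isomerase of the ER that is needed for Muc2 production. Its levels were 1729, 1446 and 2104 CPM in PBS mice and 1750, 965 and 1895 CPM in TNF mice. Apart from TNF replicate 2, which was the lowest, the TNF values lay within the PBS range. The log2 fold change between the means of 1760 ± 330 and 1537 ± 500 CPM came to -0.20 (SE 0.35, edgeR adjusted p = 0.853), with -0.28 without TNF replicate 1 and 0.02 without TNF replicate 2.

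**Figure D2:**
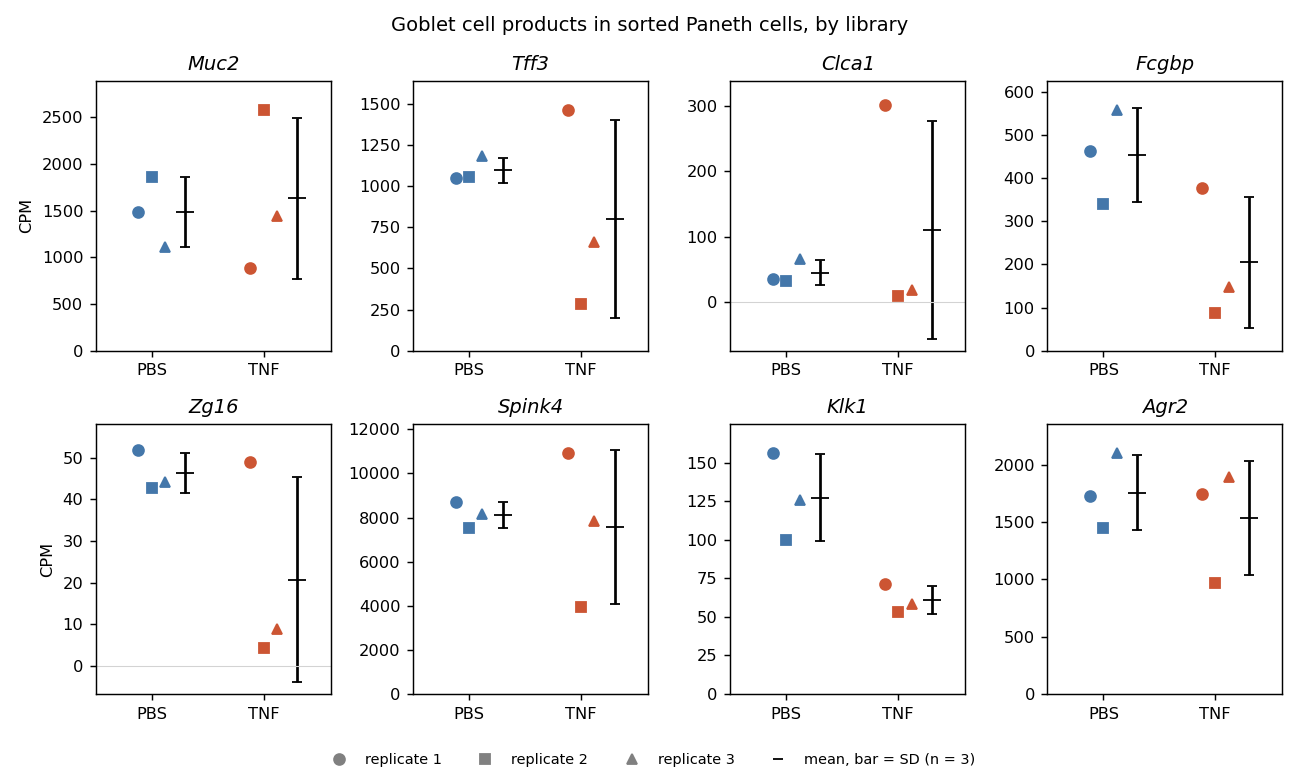
CPM of each goblet cell product in every library, 1 panel per gene with its own linear axis that includes 0, points marked by replicate number, and the mean with SD (n = 3) for PBS and TNF mice. Klk1 is the only gene whose TNF values (53.2 to 71.2) all lie below its PBS values (99.8 to 156), and the TNF value of 302 for Clca1 is replicate 1.

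Read together over all 6 libraries, 0 of the 8 genes passed 5% in edgeR, where 0 of 13026 genes did (0.00%). At an unadjusted p under 0.05 there were 2 of the 8, Klk1 and Fcgbp, both lower in TNF mice, against 12.3% of all tested genes in either direction. A log2 fold change below 0 was found for 6 of the 8 and for 50.0% of all tested genes, and the median was -0.32 over the 8 genes and -0.00 over all. DESeq2 called 1 of the 8, Klk1, lower in TNF mice, against 0.276% of all genes lower. limma-voom with sample weights called Fcgbp, Zg16 and Klk1 lower, against 4.47% of all genes lower. Without the low-count filter edgeR called Fcgbp, Zg16 and Klk1 lower and Clca1 higher, against 0.849% of 23434 genes lower and 2.10% higher.

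When TNF replicate 1 was left out, 5 of the 8 genes (Tff3, Clca1, Fcgbp, Zg16 and Klk1) passed 5% and were lower in TNF mice, against 5.40% of 13660 genes lower. Their median over the 8 was -1.19. Muc2, Spink4 and Agr2 did not pass in that fit. With any of the other libraries left out, 0 of the 8 passed. The number of calls varied with test and filter, as given above, and within edgeR with the filter it rested on whether TNF replicate 1 was included. That library was picked out by its values in these data, so the calls without it are not an independent test. The same 5 genes had TNF replicates 2 and 3 both below every PBS library, which held for 22.0% of all tested genes. In Tff3 the higher of these 2 libraries was 659 CPM and the lowest PBS library 1051 CPM, whereas in Zg16 the values were 8.78 and 42.8 CPM. The edgeR fit without TNF replicate 1 also called 5 of 8 enterocyte markers and 3 of 5 stem cell markers lower. In these bulk samples, fewer cells that carry a transcript and less of the transcript per cell cannot be told apart.

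**Figure D3:**
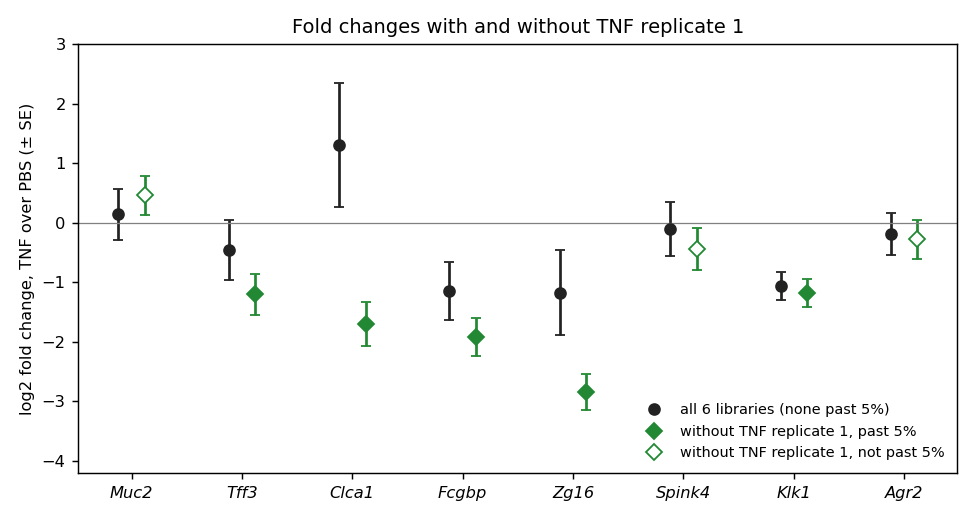
Log2 fold change (TNF against PBS) of each goblet cell product with its SE from edgeR, for all 6 libraries (black) and without TNF replicate 1 (green, filled where past 5%), with a line at 0. Clca1 moves from 1.31 to -1.70 and Zg16 from -1.17 to -2.84, whereas Klk1 stays near -1.07 and -1.17.

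The spread among the TNF mice differed widely between the 8 genes. In PBS mice the highest library of a gene was 1.13 to 2.07 times its lowest. Among TNF mice this ratio was 33.4 for Clca1, 11.7 for Zg16, 5.18 for Tff3, 4.26 for Fcgbp, 2.90 for Muc2 and 2.78 for Spink4, but 1.96 for Agr2 and 1.34 for Klk1. The ratios of Clca1, Zg16 and Fcgbp rested most on TNF replicate 1, their highest TNF library. For Muc2 the ratio was that of TNF replicate 2 to TNF replicate 1. In Tff3 and Spink4 TNF replicate 1 was the highest and TNF replicate 2 the lowest, so both libraries set the ratio. Between TNF replicates 2 and 3 alone the ratio was 2.00 for Clca1, 2.09 for Zg16, 2.33 for Tff3, 1.68 for Fcgbp, 1.79 for Muc2 and 1.99 for Spink4, with 1.96 for Agr2 and 1.10 for Klk1. Klk1 had the lowest ratio of the 8 both with and without TNF replicate 1.

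The summed counts of the 8 genes made up 1.31%, 1.37% and 1.42% of all counts in the PBS mice and 1.26%, 0.950% and 1.10% in the TNF mice. All 3 TNF libraries lay below the PBS libraries, and the 95% Wilson intervals, which cover counting error only, were within 0.0065 percentage points of each share. The mean share was 1.37 ± 0.0576% in PBS and 1.10 ± 0.155% in TNF mice. Spink4 alone provided 49.7% to 69.0% of the sum. The sum also depended on the denominator. When the 11 genes that each held over 1% of counts were left out, TNF replicate 1 had the highest share of the 6 libraries (3.30%), and the group means were 2.95 ± 0.114% and 2.43 ± 0.822%.

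Ratios between genes of the same library do not depend on its scaling. Muc2 over Tff3, as a ratio of CPM, was 1.41, 1.76 and 0.937 in PBS mice and 0.607, 9.13 and 2.19 in TNF mice. Muc2 over Fcgbp was 3.20, 5.48 and 1.99 in PBS mice and 2.36, 29.2 and 9.69 in TNF mice. TNF replicates 2 and 3 thus held more Muc2 per Tff3 and per Fcgbp than any PBS library, and TNF replicate 1 did not. Muc2 over Agr2 was 0.857, 1.29 and 0.528 in PBS mice and 0.507, 2.67 and 0.760 in TNF mice, so here TNF replicate 3 lay inside the PBS range and TNF replicate 2 alone was above it. Clca1 over Zg16 was 0.663, 0.748 and 1.50 in PBS mice and 6.15, 2.15 and 2.06 in TNF mice. For this pair all 3 TNF libraries lay above all 3 PBS libraries, but through unlike levels. TNF replicate 1 had high Clca1 (302 CPM) with Zg16 inside the PBS range (49.1 CPM). In TNF replicates 2 and 3 both genes were below every PBS library. Clca1 over Tff3 was 0.0327, 0.0304 and 0.0559 in PBS mice and 0.206, 0.0320 and 0.0275 in TNF mice, with TNF replicate 1 alone above the PBS range. These pairs were chosen with the values known and carry no test. Exon lengths differ between these genes (13916 bases for Muc2 and 516 for Tff3), and the median deviation from the mean log2 CPM over libraries of the quartile of genes with the longest exons was -0.12, -0.08 and -0.14 in TNF replicates 1 to 3 and between -0.08 and 0.05 in the PBS libraries. The part of length in the ratios was not tested.

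Likeness between the patterns was measured as the root mean square difference of log2(CPM + 0.5) over the 6 libraries, after each gene was centred on its own mean. By this measure Spink4 and Agr2 were the nearest pair (0.24), followed by Tff3 and Fcgbp (0.38). Zg16 was nearest to Fcgbp (0.51) and Klk1 to Agr2 (0.50). Muc2 and Clca1 lay farthest from each other at 2.02, and each was far from its nearest partner, 0.82 for Muc2 to Agr2 and 1.00 for Clca1 to Tff3. Among 7236 tested genes with a mean of at least 10 CPM, the 5 with the pattern most like Muc2 were Sidt1 (0.17), Chd3 (0.18), Plxna1 (0.19), Abcc4 (0.19) and Cndp2 (0.19). 0 of the 5 belong to the goblet cell lists used here, but these lists hold only a small part of the 7236 genes, so this says little. Several of these distances rested on TNF replicate 1. Over the other 5 libraries Spink4 and Agr2 were still the nearest pair (0.17), but Clca1 was nearest to Fcgbp (0.26), Tff3 to Clca1 (0.35), Klk1 to Tff3 (0.41) and Muc2 to Spink4 (0.79). Muc2 and Zg16 were then the farthest pair (1.70), and the 5 genes named for Muc2 ranked 8 to 27 by likeness, at 0.16 to 0.20.

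**Figure D4:**
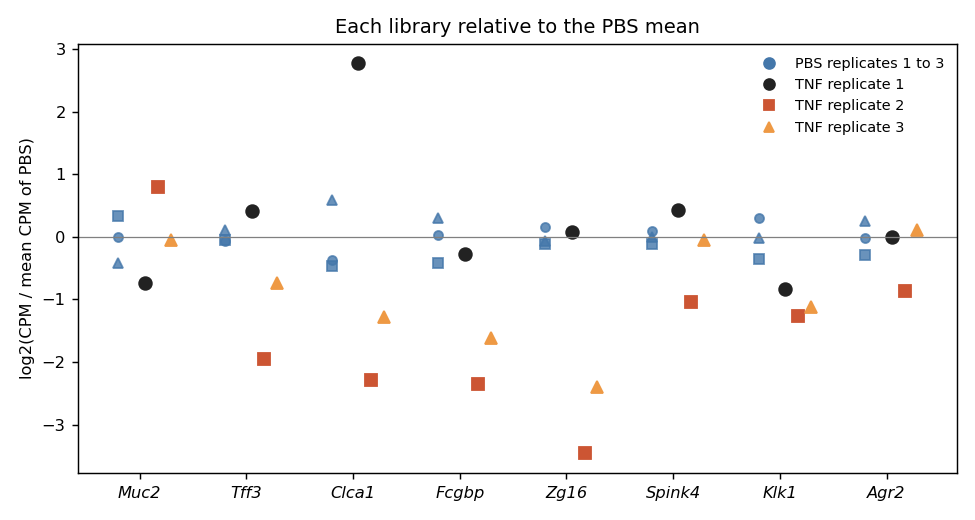
Log2 ratio of CPM in each library to the PBS mean of the same gene, 1 column of points per goblet cell product, with PBS libraries in blue, each TNF library in its own colour and a line at 0. TNF replicates 2 and 3 lie below all PBS libraries for Tff3, Clca1, Fcgbp, Zg16 and Klk1, and TNF replicate 1 does so for Klk1 and Muc2 only and is far above them for Clca1 (302 CPM).

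Promoter sequences from RefSeq (GRCm38.p6) were found for Muc2, Fcgbp, Klk1 and Agr2, and not for Tff3, Clca1, Zg16 and Spink4. They are shown because Muc2 and Fcgbp, the mucin and the protein that binds it, had unlike values in the TNF mice, and Klk1 was the gene without overlap. Each run is the 250 bases before the transcription start, 5′ to 3′ on the plus strand, at chr7:141690090-141690339 (Muc2), chr7:28070986-28071235 (Fcgbp), chr7:44225110-44225359 (Klk1) and chr12:35992675-35992924 (Agr2). Capitals mark CAGNTG, an E-box form searched on both strands, and TATAA, the core of the TATA box, searched on the strand of the gene. The marked motifs do not overlap each other.
Muc2: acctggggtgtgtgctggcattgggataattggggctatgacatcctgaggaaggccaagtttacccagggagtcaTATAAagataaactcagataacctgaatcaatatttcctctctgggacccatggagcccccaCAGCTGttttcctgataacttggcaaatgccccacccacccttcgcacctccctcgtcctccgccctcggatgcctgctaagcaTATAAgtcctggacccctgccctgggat
Fcgbp: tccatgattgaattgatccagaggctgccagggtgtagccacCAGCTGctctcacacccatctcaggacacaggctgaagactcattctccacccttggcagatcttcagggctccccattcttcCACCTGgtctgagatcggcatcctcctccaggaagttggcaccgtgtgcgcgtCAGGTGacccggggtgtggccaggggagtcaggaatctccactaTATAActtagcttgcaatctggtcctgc
Klk1: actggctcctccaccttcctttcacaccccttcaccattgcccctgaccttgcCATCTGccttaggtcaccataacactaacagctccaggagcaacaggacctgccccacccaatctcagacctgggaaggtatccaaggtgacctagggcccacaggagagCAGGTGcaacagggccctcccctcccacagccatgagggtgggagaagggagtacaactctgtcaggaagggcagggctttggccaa
Agr2: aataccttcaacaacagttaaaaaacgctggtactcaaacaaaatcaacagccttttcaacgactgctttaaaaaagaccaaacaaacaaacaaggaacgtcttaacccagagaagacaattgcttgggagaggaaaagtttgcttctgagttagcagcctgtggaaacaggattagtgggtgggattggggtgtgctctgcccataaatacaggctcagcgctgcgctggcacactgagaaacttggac
TATAA began 28 bases before the start in both Muc2 and Fcgbp, and Muc2 had another 174 bases before the start. Klk1 and Agr2 had none, and 16.0% of 32851 mouse promoter windows of this length held 1 or more. The window of Fcgbp held 3 E-boxes, at 208, 125 and 72 bases before the start, that of Klk1 held 2, at 197 and 87, and that of Muc2 held 1, at 112. Agr2 held none, and 44.8% of all windows held at least 1. GGGA followed 2 bases later by TTCC, a form of the NF-kB motif found in 1.21% of all windows, and TTCNNNGAA, a STAT motif found in 7.02%, were searched on both strands and matched in none of the 4. A match or its lack describes only these letters in this window.

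Among other secreted products of goblet cells, 7 of 12 listed genes were tested, 0 passed 5% in edgeR, 1 had a value above 0 and 6 below, and the median log2 fold change was -0.39 against -0.00 for all genes. Tff2, another trefoil peptide, was the gene above 0. It measured 1.01, 0.601 and 4.19 CPM in PBS mice and 29.5, 3.03 and 18.8 CPM in TNF mice, which gave 3.14 on the log2 scale (SE 0.88, edgeR adjusted p = 0.278). The groups overlapped through TNF replicate 2. The difference was opposite in sign to that of Tff3 (-0.45, SE 0.51), but both genes were highest in TNF replicate 1. Tff2 passed 5% in DESeq2 (adjusted p = 0.00502) and in edgeR without the low-count filter (adjusted p = 2.29e-11). The latter fit gave 3.10 with an SE of 0.40 (0.88 with the filter), although the TNF libraries spread from 3.03 to 29.5 CPM. The log2 fold change of Tff2 without TNF replicate 1 was 2.50 (edgeR adjusted p = 0.0577). Its adjusted p without TNF replicate 3 was 0.897. In DESeq2 it was the only gene of the list past 5%, beside 1.58% of all genes higher. Guca2a, the hormone guanylin, averaged 304 ± 48.5 and 202 ± 116 CPM in the PBS and TNF groups (log2 fold change -0.59), and Tpsg1, a tryptase, had a log2 fold change of -0.65. With TNF replicate 1 left out, Reg4, Guca2a and Tpsg1 passed 5% and were lower, and 0 were higher, beside 5.40% of all genes lower and 9.10% higher in that fit, where the median of the list was -0.24 and that of all genes -0.01.

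Of 12 goblet markers that are not secreted, all were tested, 0 passed 5%, and 4 lay above 0 and 8 below (median -0.24). The smallest p-values were those of Lrrc26, a potassium channel subunit (log2 fold change -0.72), Slc50a1, a sugar transporter (-0.54), and Bace2, an aspartic protease (0.74). In the fit that left out TNF replicate 1, Lrrc26, Capn9, Scin and Ramp1 passed 5% and were lower, and Bace2 was higher (median -0.47). Among all genes that fit called 5.40% lower and 9.10% higher. Scin, an actin-severing protein chosen after its values were seen, had 7.28 to 11.9 CPM in PBS mice and 49.1, 0.636 and 0.644 CPM in TNF mice. Like Clca1 it was highest of all libraries in TNF replicate 1 and lowest in the other two.

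The 11 regulators of goblet cell fate and secretion were all tested, and 0 passed 5%, with 4 above 0 and 7 below (median -0.30). Ern2, an ER stress sensor of mucus-producing cells, measured 115, 99.9 and 70.2 CPM in PBS mice and 68.8, 55.8 and 42.4 CPM in TNF mice, without overlap (log2 fold change -0.77, SE 0.26, edgeR adjusted p = 0.317). Xbp1, the transcription factor of the same stress pathway, also had lower values in all 3 TNF mice (238 ± 62.2 and 153 ± 18.9 CPM, log2 fold change -0.64). Without overlap, 2 of the 11 were lower and 0 higher in TNF mice, beside 7.82% and 9.07% of all tested genes. Gfi1, a zinc finger factor of secretory cells, had a log2 fold change of 0.58. Ern2 was called lower and Gfi1 higher without TNF replicate 1 (median -0.50), while Xbp1 was at -0.68 and did not pass. Of all genes, 5.40% were called lower and 9.10% higher in that fit. Atoh1 and Spdef, the factors most used to define the lineage and named here for that reason, had values above 0 (0.57 and 0.29, and 0.80 and 0.34 without TNF replicate 1) and did not pass 5% in either fit.

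The disulfide enzymes of the ER, to which Agr2 belongs, had 13 tested genes, 0 past 5%, 4 above 0 and 9 below, with a median of -0.43. Ero1b, an oxidase that feeds disulfide isomerases, measured 61.4, 59.9 and 64.3 CPM in PBS mice and 44.7, 27.2 and 22.3 CPM in TNF mice (log2 fold change -0.98, SE 0.27, edgeR adjusted p = 0.278). Its relative Ero1a went the other way in TNF replicates 2 and 3, with 36.2, 33.9 and 30.4 CPM in PBS mice and 24.4, 140 and 109 CPM in TNF mice (log2 fold change 1.45). The groups of Ero1b did not overlap, and those of Ero1a overlapped through TNF replicate 1 alone. Of the 13 genes 2 were lower and 0 higher without overlap, beside 7.82% and 9.07% of all tested genes. Pdia4, a disulfide isomerase, had a log2 fold change of -0.92. Agr3, Pdia4, Pdia5, Pdia6 and Ero1b passed 5% without TNF replicate 1 and were lower, and Ero1a was higher (median -0.70). The shares of all genes called in that fit were 5.40% lower and 9.10% higher.

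Genes of mucin glycosylation had 20 of 21 listed genes tested, 0 past 5%, 10 above 0 and 10 below, and a median of -0.00. St3gal6, a sialyltransferase, had 22.3, 31.0 and 39.5 CPM in PBS mice and 52.3, 57.4 and 83.0 CPM in TNF mice, with no overlap, as in 9.07% of all tested genes in that direction (log2 fold change 1.05, SE 0.27, edgeR adjusted p = 0.270). B3gnt3, which extends mucin-type sugar chains, had 42.2 ± 3.74 and 106 ± 71.5 CPM (1.33), and Galnt3, which starts such chains, had 85.9 ± 15.7 and 57.6 ± 13.6 CPM (-0.58). Of the 20 genes, 3 had groups without overlap, of which 1 was higher in TNF mice and the others, Galnt3 among them, lower. The shares of all tested genes were 9.07% higher and 7.82% lower. B3gnt3, St3gal6, Fut2 and Nans passed 5% without TNF replicate 1 and were higher, and Galnt3 was lower (median 0.05). Across all genes 9.10% were called higher and 5.40% lower in that fit. St3gal6 also passed 5% in DESeq2 (adjusted p = 0.0413), as the only gene of the list, beside 1.58% of all genes higher.

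For granule release and mucus maturation 17 of 19 listed genes were tested, 0 passed 5%, and 9 lay above 0 and 8 below (median 0.03). Vamp8, a fusion protein of secretory granules, had a log2 fold change of 0.70, and Mep1b, the meprin subunit that releases Muc2 from the epithelium, had -0.84. Among the genes past 5% without TNF replicate 1, Vamp8 and Stx3 were higher, and Cftr, Mep1b and Nlrp6 were lower (median 0.06). That fit called 3 of the 17 higher and 3 lower, beside 9.10% and 5.40% of all genes.

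Of the mucins that stay in the cell membrane 5 were tested, 0 passed 5%, and 3 lay above 0 and 2 below (median 0.29). Muc4 measured 6.64, 8.88 and 8.23 CPM in PBS mice and 9.77, 60.7 and 40.7 CPM in TNF mice, so all TNF values were above the PBS values and TNF replicate 1 only just (log2 fold change 2.23, SE 0.54, edgeR adjusted p = 0.270). Across all tested genes 9.07% had TNF libraries entirely above the PBS libraries. Muc1 was near the limit of counting at 0.220 to 0.667 CPM in PBS mice and 0.340 to 4.35 CPM in TNF mice. Muc3a had a log2 fold change of -0.55 that became 0.01 without PBS replicate 2. Muc1 and Muc4 passed 5% without TNF replicate 1 and were higher, and 0 were lower (median 0.70). For all genes the shares in that fit were 9.10% higher and 5.40% lower. Muc4 also passed 5% in DESeq2 (adjusted p = 0.00314), as the only gene of the list, beside 1.58% of all genes higher.

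**Figure D5:**
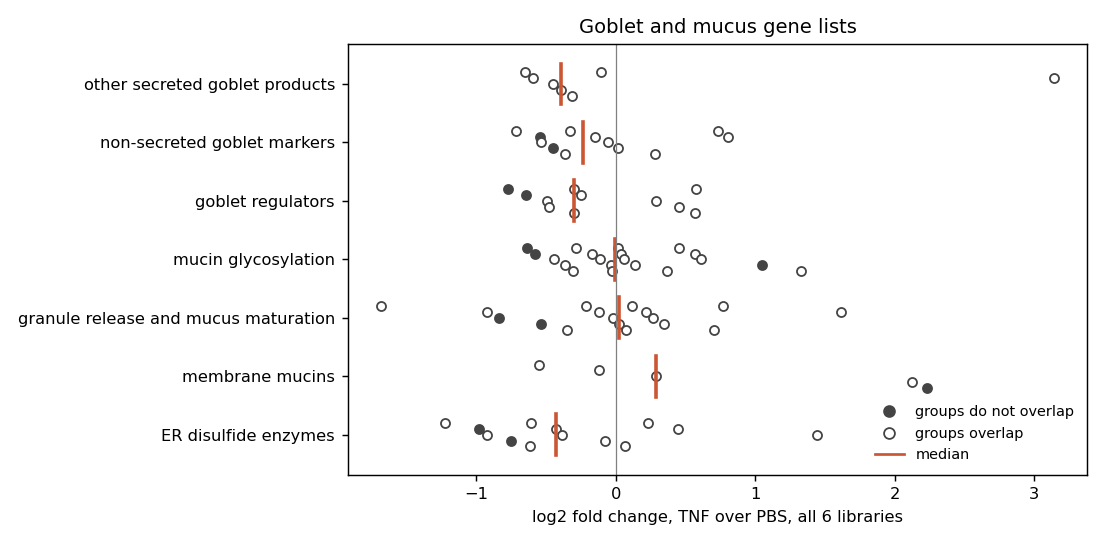
Log2 fold change (TNF against PBS, edgeR, all 6 libraries) of each tested gene in 7 lists related to goblet cells and mucus, 1 row per list, with filled points where the groups do not overlap and a bar at the list median. The medians run from -0.43 for the ER disulfide enzymes to 0.29 for the membrane mucins, and Tff2 lies farthest right at 3.14.

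Relatives of the 8 genes could share reads with them, and how the authors treated reads that fit several places is not given in the sources used here. Beside Klk1, the 23 Klk1b genes and pseudogenes held 7 counts in all 6 libraries together, and Fcgbpl1 held 4. Clca3b, a relative of Clca1, measured 388, 303 and 275 CPM in PBS mice and 459, 71.0 and 42.4 CPM in TNF mice. Like Clca1 it was highest in TNF replicate 1 and lowest in the other two TNF libraries, and its log2 fold change was -0.75 with all libraries and -2.48 without TNF replicate 1 (edgeR adjusted p = 0.713 and 3.49e-04). Agr3, the neighbour and relative of Agr2, was low at 3.60 to 4.26 CPM in PBS mice and 4.84, 0 and 0.242 CPM in TNF mice. The repeats of Muc2 can also draw reads that fit several places.

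Markers of other cells that a sort could hold were summed per library. The 5 stem cell markers gave 2166 to 2663 CPM in PBS mice and 4159, 390 and 407 CPM in TNF mice, with log2 fold changes above 0 in 0 of 5. Most of this sum was Olfm4, at 1925 to 2374 CPM in PBS mice and 3887, 233 and 272 CPM in TNF mice. The other 4 markers summed to 236 to 289 CPM in PBS mice and 272, 158 and 134 CPM in TNF mice, and Lgr5 among them ranged from 54.0 to 76.8 CPM in PBS mice with 69.0, 68.3 and 42.2 CPM in the TNF mice. The 8 enterocyte markers, 6 of them tested and 0 above 0, gave 170 to 235 CPM in PBS mice and 178, 63.4 and 53.2 CPM in TNF mice. Both sums were low in TNF replicates 2 and 3, the libraries in which Tff3, Fcgbp, Zg16 and Clca1 were low. The 7 tuft cell markers ranged over 423 to 1474 CPM in PBS mice and 496 to 969 CPM in TNF mice (0 of 7 above 0), and the 8 enteroendocrine markers over 52.5 to 178 and 46.9 to 139 CPM (4 of 8 above 0). The 7 immune markers gave 21.4 to 53.2 and 34.2 to 43.6 CPM, with 1 of the 2 tested above 0 and with Jchain at 0 in every library. The fit without TNF replicate 1 called 5 of 8 enterocyte markers and 3 of 5 stem cell markers lower, and 0 of either higher. Of the 11 PC markers 2 were then lower and 1 higher, and of the 8 enteroendocrine markers 1 was lower and 1 higher. For the tuft cell and immune markers 0 passed 5%. Of all genes, that fit called 5.40% lower and 9.10% higher. Mitochondrially encoded genes held 0.685% to 1.79% of counts. The part of other cells in the levels of the goblet cell products was not tested.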

How the data were processed

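RNA from sorted PCs (Aurum Total RNA Mini kit) was sequenced on the Element AVITI platform (single-end). The authors deposited raw counts per Ensembl gene. The submitters' processing notes name FastQC, Trimmomatic 0.39, STAR 2.7.10a, DESeq2 and the build mm39. For the counting tool, its annotation, strand setting and handling of multi-mapping reads, details were not given in the sources used here. Groups came from the sample labels. Symbols, positions and exon lengths came from GENCODE vM39 (GRCm39), which matched 54749 of 55414 identifiers.

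Genes kept by filterByExpr (minimum count 10, minimum total 15) were tested, TNF against PBS, two-sided, with the quasi-likelihood test of edgeR 4.0.16 (R 4.3.3) on TMM factors. Genes were called at 5%, meaning a p under 0.05 after Benjamini-Hochberg adjustment. On simulated counts the test was checked for recovery of known changes. The simulation gave all genes the same dispersion and no library that stood apart, so it does not show the power in these data. Libraries differed by more than sampling noise, so none was counted as a duplicate.

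The 8 genes and the lists were chosen with earlier results of these data known. Named genes were the 8, up to 3 genes per list with the smallest unadjusted p, the nearest gene by pattern for each, the 5 nearest to Muc2, and relatives by symbol. Genes passing 5% without TNF replicate 1, Atoh1, Spdef and Scin were added after their values were seen. Alternatives were relative log expression factors, library size alone, TMM factors computed without the genes above 1% of counts, testing with no filter or with one on mean CPM (at least 5), each library left out, DESeq2 1.42.0, a block on the replicate number, and limma-voom (limma 3.58.1) with sample weights. Some single list members are among the counts but not reported here by name.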

Additional observations from a re-analysis of the deposited data

How the results depend on the processing

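The number of genes past 5%, 0 in edgeR with all libraries (1596 at an unadjusted p under 0.05), was 690 without the low-count filter, 242 in DESeq2, 1501 in limma-voom with sample weights and 0 to 1980 with each library left out, the 1980 being without TNF replicate 1. For the 8 goblet cell products the numbers were 4, 1, 3 and 0 to 5, again highest without TNF replicate 1. The log2 fold change of Clca1 was -0.49 with the replicate block, -1.32 with sample weights and -1.70 to 1.83 with each library left out. Over the libraries left out, Muc2 ran from -0.38 to 0.46, Spink4 from -0.45 to 0.18, Agr2 from -0.37 to 0.019 and Muc3a from -0.85 to 0.007. Fcgbp, Zg16, Tff3 and Klk1 stayed below 0 under every alternative tried. The difference in summed share, TNF minus PBS, was -0.264 percentage points, -0.515 without the genes above 1% of counts, and -0.342 to -0.187 with each library left out. Scaling by library size alone shifted the median of all genes to -0.11 and that of the 8 genes to -0.53. Causes of these shifts were not tested.

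The labels give both groups replicate numbers 1 to 3 and do not say whether these pair the libraries. The deviations of same-numbered libraries correlated at -0.01, -0.07 and 0.03, and libraries did not all correlate best with their own number. No pairing by number was seen, but 3 libraries a group, with TNF replicate 1 apart, cannot exclude it. With the replicate block 0 genes and 0 of the 8 passed 5% (1395 genes at an unadjusted p under 0.05). DESeq2 gave no adjusted p for Clca1. With 3 libraries a group, of which 1 stood apart, a difference that missed 5% is not shown to be absent, and no dose, sex or batch could be examined.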
